A study of Arabidopsis thaliana with 8 samples.

Results

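Small heat shock proteins are chaperones built around a conserved alpha-crystallin domain. They assemble into oligomers, bind proteins that are unfolding and hold them in a state from which larger, ATP-driven chaperones can refold them. Plants have an unusually large family with members in the cytosol, nucleus, mitochondria, plastids, endoplasmic reticulum and peroxisomes, and many of the genes are nearly silent in unstressed leaves and roots until heat shock transcription factors bind their promoters. The members followed here are 6 genes of cytosolic or cytosolic and nuclear proteins, chosen by locus with earlier results of these data known. Each had a probe set that the platform annotation pairs with that gene alone, as did 5 other related genes described below. The 6 genes are HSP17.6C (AT1G53540), HSP17.6B (AT2G29500), HSP17.4B (AT1G54050), HSP18.5 (AT2G19310), HSP15.4 (AT4G21870) and HSP21.7 (AT5G54660). Each had 1 probe set, so the 6 genes stand for 6 of the 22810 probe sets on the array, of which 13436 were paired with 1 gene in the tables used.

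RNA came from whole Arabidopsis thaliana seedlings of 7 days, pooled at about 100 plants per sample, and was hybridised to 1 Affymetrix array per sample. The 4 groups were til1-1 at 37 °C (collected directly after heat shock), til1-1 at 22 °C, wild type Col-0 at 37 °C and Col-0 at 22 °C, with 2 biological replicates each. The til1-1 line carries a mutant allele of TIL, the gene of temperature-induced lipocalin. The sources used here state neither the nature of the allele nor the length of the heat shock. Values are linear intensities in arbitrary units, scaled by the authors' software, and the number of arrays limits their precision.

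The TIL probe set was read first, as a check of the genotype labels. It gave 5341.8 and 5803.7 units in til1-1 at 37 °C, against 20289.7 and 21245.7 in Col-0 at 37 °C, and 3047.8 and 3167.6 in til1-1 at 22 °C, against 3132.3 and 3795.1 in Col-0 at 22 °C. The label was thus borne out at 37 °C and not at 22 °C, and the position of the probes against the mutation is unknown here, so these samples are named below by their label, as samples labelled til1-1. Array medians were 154.8 to 160.35 at 37 °C and 197.6 to 204.1 at 22 °C, and the median log2 difference of all 17059 tested probe sets between temperatures was -0.19 in the samples labelled til1-1 and -0.18 in wild type. Setting array medians equal gave 0.05 and 0.07, quantile normalization -0.06 and -0.05, and a scaling to 9 spiked control probe sets -0.60 and -0.74. The share of called probe sets that were higher moved with these scalings, being 28.7% (samples labelled til1-1) and 28.4% (wild type) as deposited, 58.2% and 59.5% when array medians were equal, 40.4% and 40.7% by quantile normalization, and 7.01% and 5.15% by spiked controls. Whole seedlings hold many cell types. The 3 root-enriched genes listed (PYK10, EXPA7 and EXPA18) fell after heat shock in both genotypes under each of the 4 scalings, with a median log2 difference as deposited of -1.61 in the samples labelled til1-1 and -1.19 in wild type. Their summed level was 8980.4 to 9152.7 units at 37 °C and 16422.6 to 16718.9 units at 22 °C in the samples labelled til1-1. In wild type it was 10642.7 to 11600.8 units at 37 °C and 17143 to 18836.4 units at 22 °C. PYK10 made up nearly all of these sums. In the samples labelled til1-1 at 37 °C it averaged 8907.8 units, beside 68 for EXPA7 and 90.75 for EXPA18. As deposited PYK10 also changed least of the 3, at -0.84 in the samples labelled til1-1 and -0.67 in wild type on the log2 scale. Of 4 nuclear photosynthesis genes of green tissue (RCA, LHCB4.1, LHCB4.2 and PSAE-1), 4 passed as higher in the samples labelled til1-1 and 3 in wild type as deposited, with medians of 0.62 and 0.38, but for RCA and LHCB4.1 the direction of the calls turned with the scaling in both genotypes, and for LHCB4.2 and PSAE-1 in wild type. Their summed level was 92439.1 to 95644.6 units at 37 °C and 58383.5 to 62487.2 units at 22 °C in the samples labelled til1-1, and 80442.4 to 83806.9 units at 37 °C and 61280.5 to 66841.9 units at 22 °C in wild type. No gene of either list was at 0. In RNA of whole seedlings, fewer cells of a type and less RNA per cell cannot be told apart, and the part of tissue make-up in the values below was not tested.

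Heat shock split the 6 genes into 4 that rose by a large factor in both genotypes and 2 that stayed near their level at 22 °C. HSP17.6C, HSP17.6B, HSP17.4B and HSP18.5 were each higher on every array at 37 °C than on every array at 22 °C, as 23% of tested probe sets were in the samples labelled til1-1 and 23.8% in wild type. In the samples labelled til1-1, 5 of 6 passed the test, where 44.3% of all tested probe sets did: 4 passed as higher, where 12.7% did, and HSP15.4 passed as lower, where 31.6% did. In wild type the same 4 genes passed, where 43.7% of tested probe sets did, all 4 as higher, where 12.4% did, and none of the 6 passed as lower, where 31.3% did. HSP17.6C passed the filter on dim probe sets only through its heated arrays, so its call was fixed by that filter. Among the other 5 genes, 4 passed in the samples labelled til1-1 (3 higher and 1 lower) and 3 in wild type (all 3 higher). The test throughout was limma on log2(intensity + 16), two-sided, with p-values adjusted by Benjamini-Hochberg across the 17059 tested probe sets and a threshold of 0.05, and errors of log2 values are its standard errors. The added constant of 16 makes a log2 value understate the change of a dim probe set. After scaling to spiked controls, limma took the spread of each probe set wholly from its estimate across all tested probe sets. That estimate treats a shift shared by a whole array as if it were independent between probe sets. Calls and p-values by that scaling are therefore not on a par with the others. The median log2 difference over the 6 genes was 5.91 in the samples labelled til1-1 and 5.54 in wild type. This median includes HSP17.6C and falls between the rises of HSP17.4B and HSP18.5, so it describes no single gene.

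**Figure D1:**
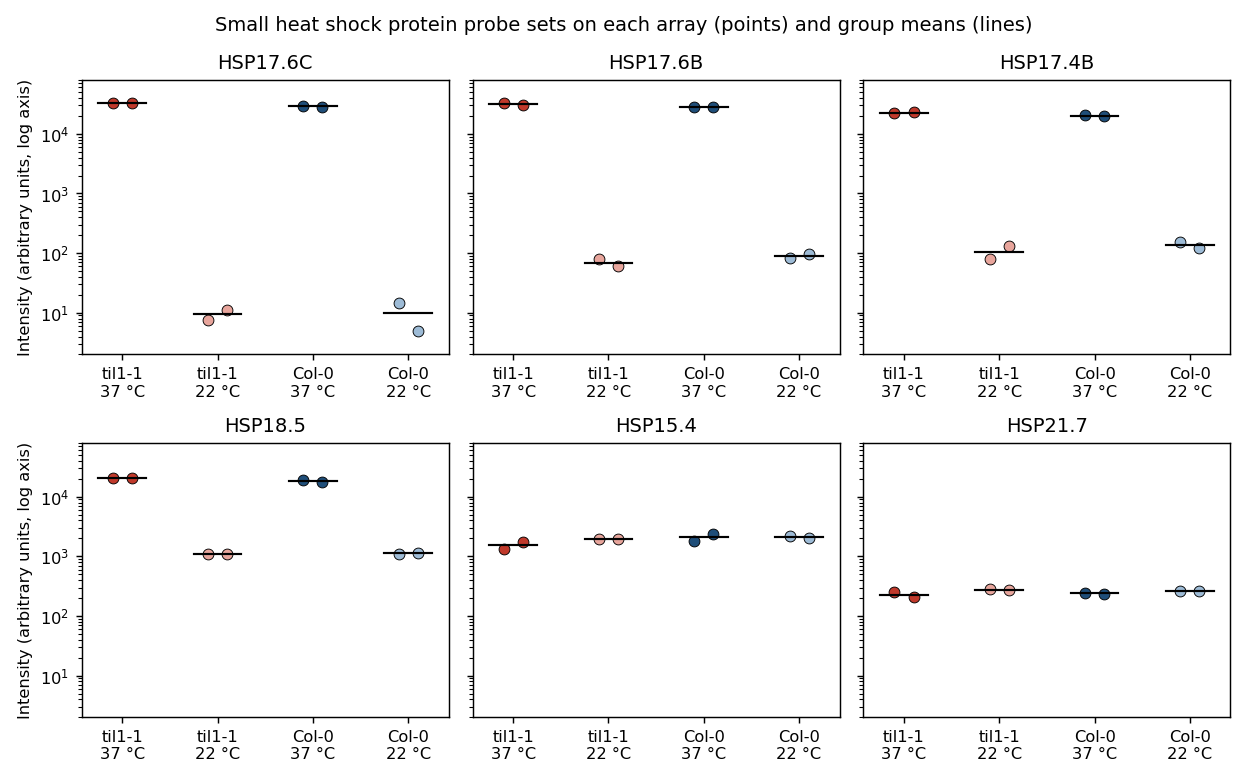
Intensity of each gene's probe set on each of the 8 arrays (points, arbitrary units, log axis), with group means as lines, for til1-1 and Col-0 at 37 °C and 22 °C. HSP17.6C, HSP17.6B, HSP17.4B and HSP18.5 lie far higher at 37 °C in both genotypes, while HSP15.4 stays between 1344.7 and 2386 units and HSP21.7 between 206.3 and 279.7 units.

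HSP17.6C and HSP17.6B encode class I proteins, the class of cytosolic small heat shock proteins that is most abundant in heat-stressed plants. HSP17.6C read 33137 and 33062.6 units in the samples labelled til1-1 at 37 °C, against 7.7 and 11.3 units at 22 °C. In wild type it read 29626.5 and 27757.5 units at 37 °C, against 14.8 and 4.9 units at 22 °C. The groups at the 2 temperatures lay far apart in each genotype, and the 22 °C values of the genotypes overlapped. The log2 difference was 10.35 ± 0.15 in the samples labelled til1-1 (limma adjusted p = 6.2e-14) and 10.14 ± 0.15 in wild type (limma adjusted p = 8.22e-14). Its readings at 22 °C were under the 25th percentile of every array (34.2 to 40.4 units), and no detection call accompanies them, so the fold itself is poorly fixed. The lowest 37 °C reading over the highest 22 °C reading was 2926-fold in the samples labelled til1-1 and 1876-fold in wild type, and the highest over the lowest was 4304-fold and 6046-fold. HSP17.6C passed the filter on dim probe sets through its 37 °C arrays alone: its mean log2 value at 22 °C was 4.67 in each genotype, against a minimum of 5.64, so among probe sets that passed it had to differ.

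HSP17.6B read 32438.8 and 30990.2 units in the samples labelled til1-1 at 37 °C, against 78.5 and 60.4 units at 22 °C. In wild type it read 28408.5 and 28126.9 units at 37 °C, against 83.1 and 97.4 units at 22 °C. Unlike those of HSP17.6C, its 22 °C arrays lay above the filter's minimum in both genotypes, at a mean of 69.5 ± 12.8 units in the samples labelled til1-1 and 90.3 ± 10.1 units in wild type (SD, n = 2 each). The log2 difference was 8.54 ± 0.11 in the samples labelled til1-1 (limma adjusted p = 1.85e-14) and 8.06 ± 0.11 in wild type (limma adjusted p = 3.18e-14), and the ratio of mean intensities was 457-fold and 313-fold. Class I genes resemble each other in sequence, and no probe sequences were used here, so signal that one of these transcripts lends to another's probe set cannot be told apart.

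HSP17.4B encodes the class III protein, which has been found in the nucleus. It read 22220.1 and 22958.7 units in the samples labelled til1-1 at 37 °C, against 78.4 and 129.3 units at 22 °C. In wild type it read 20637.1 and 19860.1 units at 37 °C, against 152.5 and 122.6 units at 22 °C. The temperatures did not overlap in either genotype, and at 22 °C the spread between replicates was wide, at an SD of 0.44 in the samples labelled til1-1 and 0.20 in wild type on the log2 scale. Its log2 difference came to 7.59 ± 0.16 in the samples labelled til1-1 (limma adjusted p = 2.1e-12) and 7.05 ± 0.16 in wild type (limma adjusted p = 4.59e-12).

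HSP18.5 read 20686.8 and 20990.4 units in the samples labelled til1-1 at 37 °C, against 1081.5 and 1104 units at 22 °C. In wild type it read 19361.6 and 17586.3 units at 37 °C, against 1110.2 and 1132.4 units at 22 °C. Its 22 °C arrays agreed closely, with a range of 1081.5 to 1132.4 units over both genotypes. Heat shock raised it by 4.23 ± 0.07 in the samples labelled til1-1 (limma adjusted p = 2.28e-13) and 4.02 ± 0.07 in wild type (limma adjusted p = 3.99e-13) on the log2 scale, the smallest rise among the 4 genes, and the ratio of mean intensities was 19.1-fold and 16.5-fold.

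HSP15.4 and HSP21.7 have the same domain and are grouped with the cytosolic small heat shock proteins by sequence. HSP15.4 read 1344.7 and 1733.5 units in the samples labelled til1-1 at 37 °C, against 1981.9 and 1993.9 units at 22 °C. In wild type it read 1820.8 and 2386 units at 37 °C, against 2235.7 and 2057.8 units at 22 °C. Both heated arrays lay below the unheated ones in the samples labelled til1-1, as 49% of tested probe sets did, while in wild type the temperatures overlapped. The log2 difference was -0.38 ± 0.13 in the samples labelled til1-1 (limma adjusted p = 0.0374) and -0.04 ± 0.13 in wild type (limma adjusted p = 0.829). The call in the samples labelled til1-1 depended on the processing. It passed in 7 of the 10 alternatives that left out no single array. Their limma adjusted p ran from 3.42e-06 (by spiked controls) to 0.515. It failed the threshold when array medians were set equal (log2 difference -0.12, limma adjusted p = 0.515), without the filter on dim probe sets (limma adjusted p = 0.0657) or without an intensity trend in the variance (limma adjusted p = 0.124). Nor did it pass without replicate 1 at 37 °C (-0.20, limma adjusted p = 0.296), without replicate 1 at 22 °C (-0.38, limma adjusted p = 0.112) or without replicate 2 at 22 °C (-0.37, limma adjusted p = 0.123) of that genotype. In wild type the difference was 0.23 with array medians set equal and -0.64 after scaling to spiked controls, where it passed (limma adjusted p = 0.00024).

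HSP21.7 read 253 and 206.3 units in the samples labelled til1-1 at 37 °C, against 279.7 and 275.4 units at 22 °C. In wild type it read 243.1 and 235.9 units at 37 °C, against 261.6 and 261.5 units at 22 °C. Both heated arrays lay below the unheated ones in each genotype, as 49% (samples labelled til1-1) and 50.5% (wild type) of tested probe sets did. The log2 difference was -0.26 ± 0.14 in the samples labelled til1-1 (limma adjusted p = 0.145) and -0.12 ± 0.14 in wild type (limma adjusted p = 0.519), and neither passed. The 95% confidence interval was -0.57 to 0.04 in the samples labelled til1-1 and -0.42 to 0.18 in wild type. In the samples labelled til1-1 the difference passed without replicate 1 at 37 °C (-0.40, limma adjusted p = 0.0482) and after scaling to spiked controls (-0.69, limma adjusted p = 0.00124), and it was 0.02 after quantile normalization. In wild type it was 0.14 when array medians were equal and 0.17 by quantile normalization, and it passed at -0.69 by spiked controls (limma adjusted p = 0.000998).

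**Figure D2:**
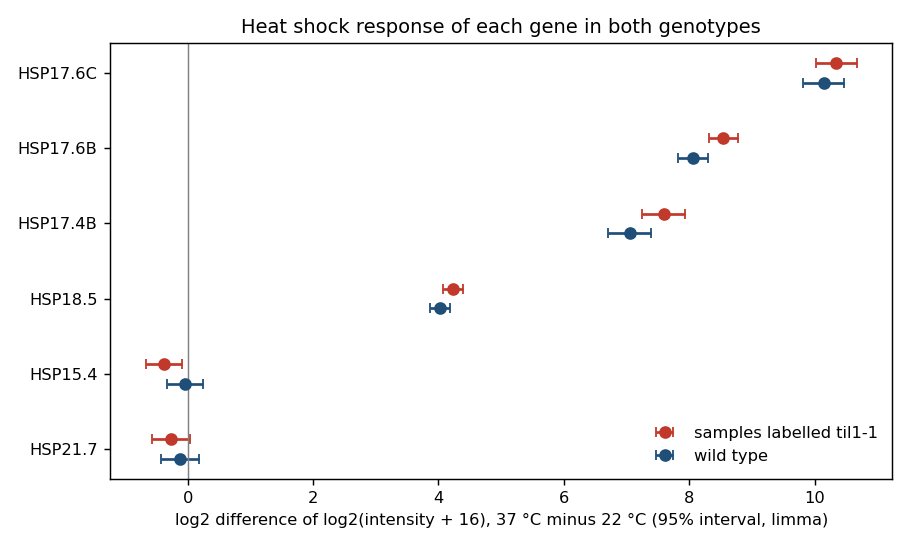
Log2 difference between 37 °C and 22 °C for each gene in the samples labelled til1-1 (red, upper point) and in wild type (blue, lower point), with 95% confidence intervals from limma. The rises run from 10.35 for HSP17.6C to 4.02 for HSP18.5, and HSP15.4 and HSP21.7 lie between -0.38 and -0.04.

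The 4 rises were also placed among all tested probe sets. By log2 difference from the highest, HSP17.6C was 3rd of 17059 in both genotypes. HSP17.6B was 14th in the samples labelled til1-1 and 15th in wild type, HSP17.4B 18th and 22nd, and HSP18.5 94th and 114th. These places depend on the added constant, and HSP17.6C was ranked only because its heated arrays took it past the filter. With a constant of 1, HSP17.6C was 5th and 6th and HSP18.5 118th and 138th, and with a constant of 64, HSP17.6C was 2nd in both and HSP18.5 76th and 84th. HSP15.4 and HSP21.7 stood in the middle of the order, at places 10990 and 9530 in the samples labelled til1-1 and 6526 and 7634 in wild type.

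**Figure D3:**
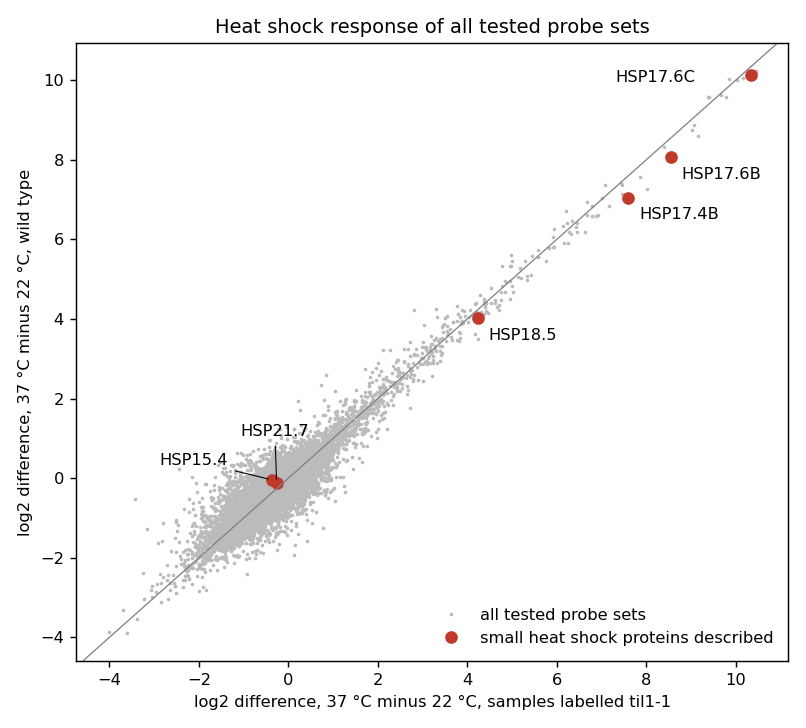
Log2 difference between 37 °C and 22 °C in the samples labelled til1-1 (x axis) and in wild type (y axis) for the 17059 tested probe sets (grey), with the 6 genes in red and a line of equal response. HSP17.6C, HSP17.6B, HSP17.4B and HSP18.5 lie at the upper right, and HSP15.4 and HSP21.7 lie within the bulk of probe sets.

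After heat shock, the samples labelled til1-1 were set against wild type. None of the 6 genes passed, against 0.0117% of all tested probe sets, that is 2 calls. At an unadjusted p under 0.05 there were 2279 of the 17059 tested probe sets, 2 of the 6 genes among them. HSP17.6C, HSP17.6B, HSP17.4B and HSP18.5 each read higher on both arrays of the samples labelled til1-1 than on both arrays of wild type, a pattern that 20.9% of all tested probe sets showed, and 75.5% of the 147 brightest described below. Means were 33100 ± 52.6 units for HSP17.6C in the samples labelled til1-1 and 28692 ± 1322 units in wild type (SD, n = 2 each). For HSP18.5 they were 20839 ± 215 units in the samples labelled til1-1 and 18474 ± 1255 units in wild type (SD, n = 2 each). The log2 differences were 0.21 (95% confidence interval -0.12 to 0.54) for HSP17.6C, 0.17 (-0.07 to 0.40) for HSP17.6B, 0.16 (-0.19 to 0.51) for HSP17.4B and 0.18 (0.02 to 0.33) for HSP18.5, with limma adjusted p-values from 0.324 to 0.708.

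These 4 readings shared their direction with other bright probe sets. Of 147 probe sets with a mean of at least 15000 units at 37 °C, a minimum chosen after the values were seen, 130 were higher in the samples labelled til1-1, with a median log2 difference of 0.15. The 4 genes are themselves counted in the 147 and in the 130. The highest reading on an array was 42240.4 to 42795.9 units in the samples labelled til1-1 at 37 °C and 36938.5 to 38127.3 units in wild type at 37 °C. Quantile normalization, which gives all arrays the same distribution, brought the median of the 147 probe sets to 0.01. Because it gives the brightest readings of all arrays the same values, a small median follows from the method. The differences of the 4 genes became 0.05 for HSP17.6C, -0.02 for HSP17.6B, 0.05 for HSP17.4B and 0.07 for HSP18.5. The cause of the shared direction was not tested. Scaling to spiked controls, which moved the median of all tested probe sets to 0.22, gave 0.43, 0.39, 0.38 and 0.40 in the same order, and none passed. Whether the brightest readings approached the scanner's limit is not recorded in the values used.

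HSP15.4 stood the other way after heat shock. It averaged 1539 ± 275 units in the samples labelled til1-1 and 2103 ± 400 units in wild type (SD, n = 2 each), and both arrays of the samples labelled til1-1 lay below both of wild type, as 18.5% of tested probe sets did. The log2 difference was -0.45 ± 0.13 (limma adjusted p = 0.202, 95% confidence interval -0.74 to -0.15). Over the 10 alternatives that left out no single array it ran from -0.46 to -0.22. It passed in none of them, with limma adjusted p-values from 0.136 to 0.422. Changing the filter, the trend, the replicate block or the samples fitted cannot change this difference, so such fits bear only on its error. With single arrays left out the difference ran from -0.64 to -0.25. HSP21.7 overlapped between genotypes, with a log2 difference of -0.06 (95% confidence interval -0.37 to 0.24, limma adjusted p = 0.879).

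Without heat shock, none of the 6 genes passed between the samples labelled til1-1 and wild type, where the 1 call was 0.00586% of tested probe sets. At an unadjusted p under 0.05 there were 656 of the 17059 tested probe sets, including HSP17.6B and HSP17.4B. Such a threshold lets probe sets through even where nothing differs, and neither gene passed after adjustment. HSP17.6B was lower by 0.32 ± 0.11 on the log2 scale (95% confidence interval -0.55 to -0.09), with both arrays of the samples labelled til1-1 below both of wild type, as 19.9% of tested probe sets were. HSP17.4B averaged 104 ± 36.0 units in the samples labelled til1-1 and 138 ± 21.1 units in wild type (SD, n = 2 each), and its arrays overlapped. HSP18.5 and HSP15.4 also read lower on both arrays of the samples labelled til1-1, at log2 differences of -0.04 and -0.11, and HSP21.7 read higher on both, as 18.3% of tested probe sets did, at 0.08. HSP17.6C, with readings of 4.9 to 14.8 units in all, had a log2 difference of 0.00 (95% confidence interval -0.33 to 0.33). The limma adjusted p-value was 1.00 for all 6 genes.

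**Figure D4:**
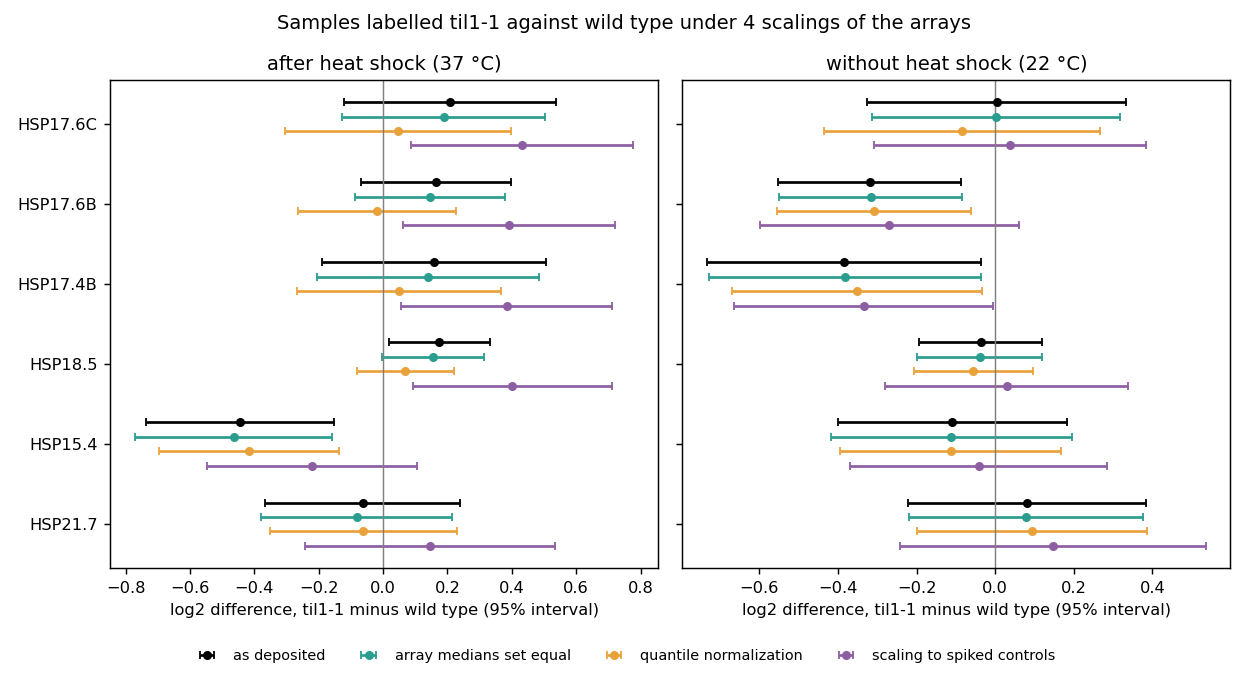
Log2 difference of each gene between the samples labelled til1-1 and wild type at 37 °C (left panel) and at 22 °C (right panel), with 95% confidence intervals from limma, under 4 scalings of the arrays (colours). At 37 °C HSP17.6B runs from -0.02 after quantile normalization to 0.39 after scaling to spiked controls, and HSP15.4 is negative under all 4.

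The difference of the heat shock responses was tested as an interaction, and none of the 6 genes passed, against 0.00586% of tested probe sets, a single call, which was TIL itself. At an unadjusted p under 0.05 there were 1156 of the 17059 tested probe sets, including HSP17.6B and HSP17.4B. The rise in the samples labelled til1-1 exceeded that in wild type by 0.48 ± 0.15 on the log2 scale for HSP17.6B (95% confidence interval 0.15 to 0.81, limma adjusted p = 0.62) and by 0.54 ± 0.23 for HSP17.4B (0.05 to 1.03, limma adjusted p = 0.7). With all arrays as deposited, the difference between genotypes at 22 °C made up the larger share for both. It was -0.32 at 22 °C beside 0.17 at 37 °C for HSP17.6B, and -0.38 beside 0.16 for HSP17.4B. With single arrays left out, the 22 °C difference ran from -0.47 to -0.17 for HSP17.6B and from -0.69 to -0.07 for HSP17.4B. The larger share thus depended on single arrays for both, since -0.17 for HSP17.6B is no larger than its 0.17 at 37 °C. It also depended on the scaling. By spiked controls the 37 °C difference was the larger, at 0.39 beside -0.27 at 22 °C for HSP17.6B and 0.38 beside -0.33 for HSP17.4B. With array medians equal or quantile normalization the 22 °C difference stayed the larger for both. The difference of responses was 0.20 ± 0.21 for HSP17.6C, 0.21 ± 0.10 for HSP18.5, -0.34 ± 0.19 for HSP15.4 and -0.14 ± 0.20 for HSP21.7, with limma adjusted p-values from 0.744 to 0.918. That HSP15.4 passed as lower after heat shock in the samples labelled til1-1 and not in wild type is therefore not a difference that the interaction test found.

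By mean intensity over the 4 conditions, HSP17.6B, HSP17.4B and HSP18.5 were highest in the samples labelled til1-1 at 37 °C, followed by wild type at 37 °C, wild type at 22 °C and the samples labelled til1-1 at 22 °C, and in this order only the step between the temperatures passed the test. HSP17.6C had the same order at 37 °C, and its overlapping readings at 22 °C gave no order of the genotypes. The readings of HSP17.4B also overlapped between genotypes at 22 °C, so its order there rests on the means alone. HSP15.4 was highest in wild type at 22 °C, at 2147 ± 126 units, then in wild type at 37 °C and the samples labelled til1-1 at 22 °C, and lowest in the samples labelled til1-1 at 37 °C. HSP21.7 was highest in the samples labelled til1-1 at 22 °C, at 278 ± 3.04 units, and lowest in the same samples at 37 °C, at 230 ± 33.0 units (SD, n = 2 each).

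Profiles most like those of the 6 genes were named by the smallest Euclidean distance between profiles on the log2(intensity + 16) scale over the 8 arrays, each centred on its own mean, among probe sets with 1 gene. Since the 8 arrays fall into 2 temperatures, any strongly heat-responsive pair lies close on this measure. Nearest to HSP17.6C were AT1G52560 (distance 0.74), ATHSP22.0 (AT4G10250, 1.87) and AT1G71000 (2.01). Nearest to HSP17.6B were AT1G71000 (1.11), AT5G37670 (1.34) and Hop3 (AT4G12400, 1.35), and nearest to HSP17.4B were Hop3 (0.70), AT5G37670 (0.71) and AT5G51440 (0.71). HSP18.5 lay nearest to AT5G47830 (0.30), AT3G12050 (0.33) and AT1G62730 (0.35), which rose by 4.10 to 4.42 in the samples labelled til1-1 and by 4.11 to 4.21 in wild type on the log2 scale. HSP15.4 lay nearest to ATO (AT5G06160, 0.20), AT1G12010 (0.20) and AT4G32915 (0.24), and HSP21.7 to AT5G46840 (0.14), OS9 (AT5G35080, 0.14) and AT1G71740 (0.15). With a constant of 64 the 3 nearest to HSP17.6C and to HSP17.4B were the same genes, while 1 or 2 of the 3 changed for each of the others.

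The 6 genes were then set beside other chaperone genes, in lists written from general knowledge. Of 14 other small heat shock or related alpha-crystallin genes, 5 were measured by a one-gene probe set. Of these, AT5G37670 rose by 7.44 ± 0.11 in the samples labelled til1-1 and 7.42 ± 0.11 in wild type on the log2 scale. AT3G22530 fell by 0.67 in the samples labelled til1-1 and by 0.52 in wild type, AT1G20870 was at -0.79 in the samples labelled til1-1, which did not pass, and at -0.96 in wild type, which did, and AT2G27140 and AT3G10680 passed in neither as deposited. The fall of AT3G22530 passed under 4 of 4 scalings in the samples labelled til1-1 and 3 of 4 in wild type, that of AT1G20870 in wild type under 2 of 4. By spiked controls AT1G20870 also passed as lower in the samples labelled til1-1 (-1.12, limma adjusted p = 0.00641) and AT2G27140 in wild type (-0.69, limma adjusted p = 0.00379), while AT3G10680 passed under no scaling. The list median was -0.03 in the samples labelled til1-1 and -0.32 in wild type, beside -0.19 and -0.18 over all tested probe sets.

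Of 5 small heat shock proteins of organelles, 3 were measured and all 3 rose in both genotypes: AT1G52560 by 9.86 (samples labelled til1-1) and 10.03 (wild type), ATHSP22.0 of the endoplasmic reticulum by 9.41 and 9.57, and AT5G51440 by 7.47 and 7.15 on the log2 scale. AT1G52560 and ATHSP22.0 averaged 3.45 to 28.9 units at 22 °C, under the filter's minimum in both genotypes. Like HSP17.6C they passed it only through their heated arrays and so had to differ, and their folds rest on readings with no known distance from background. Of 21 larger chaperones and co-chaperones, 9 were measured and 8 rose in each genotype, with a list median of 5.83 in the samples labelled til1-1 and 5.78 in wild type. AT1G71000 rose by 9.07 in the samples labelled til1-1 and 8.87 in wild type, but it too passed the filter only through its heated arrays, with means at 22 °C of 18.25 units in the samples labelled til1-1 and 22.25 units in wild type. Hop3, of a family of co-chaperones that link HSP70 to HSP90, rose by 7.46 in the samples labelled til1-1 and 7.36 in wild type, Hop2 rose by 2.64 and 2.59, and Hop1 did not pass in either as deposited (0.14 and 0.06). These 8 rises passed under all 4 scalings, but the passing of AT1G71000 does not count, as for HSP17.6C, since the filter fixed it. Hop1, in contrast, turned with the scaling. It passed as higher when array medians were equal (0.39 in the samples labelled til1-1, limma adjusted p = 0.00459, and 0.32 in wild type, limma adjusted p = 0.0142) and as lower in wild type by spiked controls (-0.54, limma adjusted p = 0.00414). None of the 15 heat shock transcription factors and regulators listed had a one-gene probe set in the tables used, and they were not analysed here. No gene in these lists passed between the samples labelled til1-1 and wild type at either temperature or in the difference of responses.

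**Figure D5:**
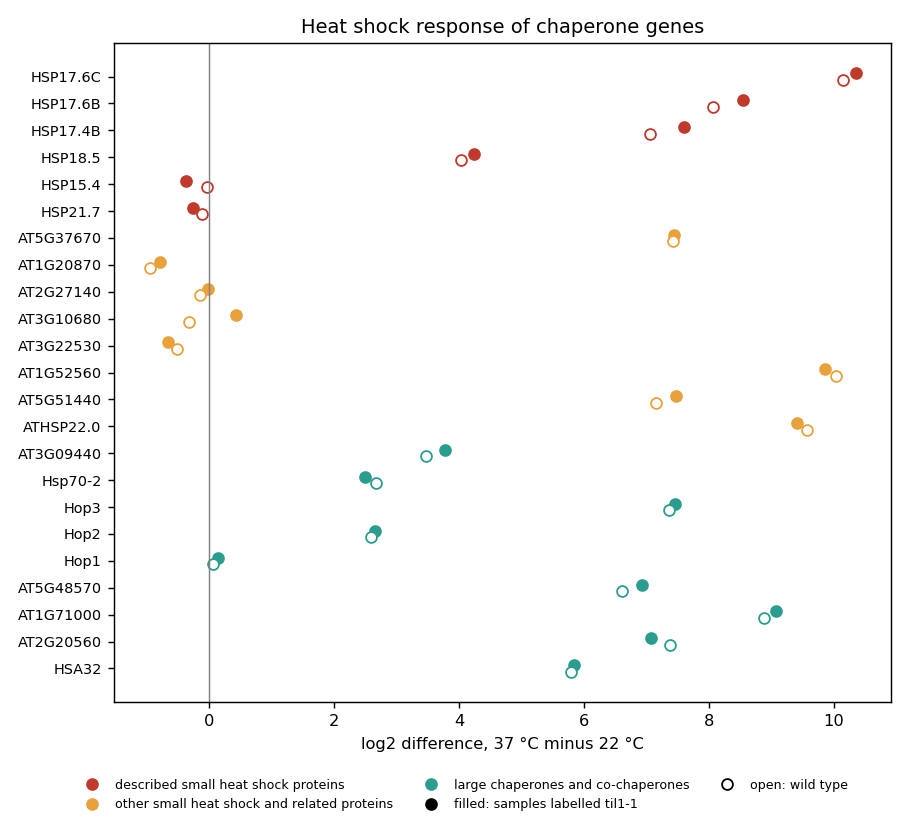
Log2 difference between 37 °C and 22 °C for the 6 genes (red), other small heat shock and related proteins (orange) and larger chaperones and co-chaperones (green), in the samples labelled til1-1 (filled) and in wild type (open). HSP15.4 and HSP21.7 lie near 0 with AT2G27140, AT3G10680 and Hop1, and the genes that rose run from 2.50 to 10.35.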

How the data were processed

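Per the labels, biotin-labelled total RNA of 8 seedling pools was hybridised to Affymetrix arrays, with groups and replicates taken from the sample titles. The deposited intensities were made with GCOS, per the submitters' processing notes, with no version or settings stated there. The 2% trimmed mean was about equal on all arrays. Genes were assigned to probe sets by the platform annotation, with symbols by gene ID from a TAIR10.1 table; its coordinates were not used, and no sequences were available for printing. The 64 control probe sets and the 25% with the lowest mean of log2(intensity + 16) were left out, which left 17059. All 8 samples were fitted with limma 3.58.1 in R 4.3.3 (1 mean per group, 4 residual degrees of freedom, eBayes with an intensity trend); the script was tested on simulated data. All 5 comparisons were adjusted separately. Named genes were the 6 members, the genes of fixed lists (all, or the highest and lowest) and the 3 nearest profiles of each member; members and lists were chosen with earlier results of these data known. Alternatives were 3 scalings, 2 constants, 2 filters, no trend, only the 4 samples compared, a replicate block and each array left out.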

Additional observations from a re-analysis of the deposited data

Results flagged for a closer look

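Among the genes named, TIL was the 1 whose heat shock response differed between genotypes by the interaction test: its difference of responses, the samples labelled til1-1 minus wild type, was -1.75 ± 0.13 on the log2 scale (limma adjusted p = 0.000204), with a log2 difference between temperatures of 0.84 in the samples labelled til1-1 and 2.58 in wild type.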

How the results depend on the processing

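The rises of HSP17.6B, HSP17.4B and HSP18.5 passed in both genotypes in each of the 10 alternatives that left out no single array. Over all 18, their log2 differences ran from 3.79 to 8.83 in the samples labelled til1-1 and 3.42 to 8.31 in wild type. HSP17.6C ran from 8.82 to 11.64 and from 8.61 to 11.54, with the highest values from a constant of 1. Its passing is not counted, since it passed the filter on dim probe sets only through its heated arrays. No gene of the 6 passed between genotypes in these 10, or in the difference of responses in the 9 that could be run. In the heat comparisons 4 or 5 of the 6 genes were called, except by spiked controls, where 6 were, with 67.1% of all tested probe sets called in the samples labelled til1-1 and 78.0% in wild type. Some small differences changed sign. For heat shock, HSP21.7 was at 0.016 in the samples labelled til1-1 and 0.17 in wild type after quantile normalization, and with array medians set equal HSP15.4 was at 0.23 and HSP21.7 at 0.14 in wild type. Between genotypes at 37 °C, HSP17.6B was at -0.018 after quantile normalization and HSP21.7 at 0.15 after scaling to spiked controls. At 22 °C, HSP17.6C was at -0.084 after quantile normalization and -0.0040 with a constant of 64, and HSP18.5 at 0.030 after scaling to spiked controls; the difference of responses of HSP21.7 was then 7.51e-05. With single arrays left out, HSP15.4 in wild type ran from -0.23 to 0.15, HSP21.7 between genotypes at 37 °C from -0.20 to 0.074, HSP17.6C at 22 °C from -0.28 to 0.28 and its difference of responses from -0.077 to 0.48.

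Scaling to spiked controls raised the number of called probe sets to 11447 for heat shock in the samples labelled til1-1, against 7563 as deposited. In wild type the number rose to 13299, against 7461. The genotypes at 37 °C, at 22 °C and the difference of responses had 320, 40 and 13 calls, against 2, 1 and 1. As said above, the p-values behind these counts are not on a par with the others. At 37 °C the calls were 1 with either other filter or with only the 4 samples compared, 10 without a trend, 15 with the replicate block and 1 to 26 with single arrays left out. At 22 °C they were 0 with medians set equal, without the filter, without a trend and with only the 4 samples compared, 3 with the replicate block and 0 to 2 with single arrays left out. Leaving out single arrays gave 1 to 2 for the difference of responses. The replicate block changed no call of the 6 genes; replicate differences of the groups correlated at -0.04 to 0.14 across probe sets, so the numbers are not shown to pair the samples. The cause of these changes was not tested. Fits that left out an array assume that the lone sample of a group varies like the others. Arrays have no read depth, and without detection calls the readings of HSP17.6C at 22 °C have no known distance from background.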
